A study of Mus musculus with 24 samples.

Results

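The subject is 37 genes of heat shock proteins and cytosolic chaperones, followed by RNA sequencing through mouse gastrocnemius, the large muscle of the calf. They were taken as every row whose gene symbol is on a list of chaperones, which gave 37 of 36172 gene models, and all 37 passed the filter on low counts. The list holds 7 small heat shock proteins, 8 genes of the Hsp70 system, 6 of the Hsp90 system, 5 of the Hsp40 family, 7 subunits of the CCT complex, 3 mitochondrial chaperones and the regulator Hsf1. The series concerns loss of Notch2 and muscle wasting and holds 24 libraries in 6 groups of 4 from C57BL/6 mice. Both genotypes carried floxed Notch2 alleles. Notch2-mKO mice (Mlc1fCre/+;Notch2f/f) also carried Cre recombinase at the Mlc1f locus, a myosin light chain gene active in skeletal muscle fibres, and the mice called WT (Notch2f/f) did not. Mice of each genotype had their hindlimbs suspended for 7 days (unloading), were made diabetic by 1 dose of the beta cell toxin streptozotocin (150 mg/kg) and sampled at day 14, or served as controls. Since all mice carry the floxed alleles and Cre acts in fibres, Notch2 of other muscle cells is left in place by design.

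Chaperones bind unfolded or partly folded proteins and keep them from aggregating. Hsp70 proteins bind and release short stretches of client protein in a cycle driven by ATP; Hsp40 proteins deliver clients and start the cycle, and nucleotide exchange factors such as Hsp110 end it. Hsp90 receives clients from Hsp70 and completes their maturation, small heat shock proteins hold unfolded protein without using ATP, and the CCT ring folds actin and tubulin. The transcription factor Hsf1 induces many of these genes in stressed cells by binding heat shock elements, in which short units alternate in direction. In skeletal muscle the small heat shock proteins are abundant and attach to the Z-disc and other parts of the contractile apparatus under load.

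Promoter sequences of the RefSeq table for build GRCm38.p6, each reaching from 250 bases before to 50 bases after a gene's start, were available for 28 of the 37 genes. The remaining 9 are Hsp90ab1, Hspa8, Hspa9, Hspb2, Hsf1, Cryab, Hsp90aa1, Cct4 and St13. A heat shock element of 3 units (GAANNTTCNNGAA or TTCNNGAANNTTC, which together cover both strands, with overlapping matches counted) was present in the windows of 4 of the 28, Hsph1, Dnajb6, Hspd1 and Hspe1. Some genes have several windows, and counted by window it was in 6 of 40 windows of these genes (15.0%), against 0.603% of 32851 windows of all genes. These 6 windows are not 6 separate sites. Hsph1 and Dnajb6 each have 2 overlapping windows that hold the same match, and Hspd1 and Hspe1 share theirs. Shares were counted by window and not by site. The shorter form of 2 units (GAANNTTC or TTCNNGAA) was present for 16 of the 28 genes, in 18 of their 40 windows (45.0%), against 15.1% of all windows. The windows below are those of genes that carried the longer element or, for Hspa1a, the shorter one, and whose values are described further on. They run 5′ to 3′ along the gene, with the bases of the longer element in capitals, or for Hspa1a those of the shorter one; a further match of the shorter form, in the Hsph1 window, is left in lower case; the Hspe1 window faces that of Hspd1 and shares its 2 overlapping matches.
Hsph1, chr5:149636287-149636586, minus strand: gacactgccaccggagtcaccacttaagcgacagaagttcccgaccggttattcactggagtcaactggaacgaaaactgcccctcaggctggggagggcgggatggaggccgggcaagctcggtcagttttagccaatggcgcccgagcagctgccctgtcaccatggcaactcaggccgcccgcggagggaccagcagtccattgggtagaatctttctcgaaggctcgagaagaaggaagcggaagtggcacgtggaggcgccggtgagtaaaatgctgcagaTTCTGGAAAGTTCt
Dnajb6, chr5:29735648-29735947, plus strand: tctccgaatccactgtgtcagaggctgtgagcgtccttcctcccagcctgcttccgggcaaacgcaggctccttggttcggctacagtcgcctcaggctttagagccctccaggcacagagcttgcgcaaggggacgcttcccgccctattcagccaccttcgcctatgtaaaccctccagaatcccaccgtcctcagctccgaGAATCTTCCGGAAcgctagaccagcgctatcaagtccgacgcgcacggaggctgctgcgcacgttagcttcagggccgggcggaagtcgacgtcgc
Hspe1, chr1:55087898-55088197, plus strand: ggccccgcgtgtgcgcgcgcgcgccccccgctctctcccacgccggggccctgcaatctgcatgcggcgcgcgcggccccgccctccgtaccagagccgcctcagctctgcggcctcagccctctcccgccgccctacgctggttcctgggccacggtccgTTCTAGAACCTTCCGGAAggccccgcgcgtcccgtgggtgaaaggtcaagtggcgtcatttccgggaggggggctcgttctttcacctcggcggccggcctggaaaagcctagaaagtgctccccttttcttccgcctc
Hspa1a, chr17:34972107-34972406, minus strand: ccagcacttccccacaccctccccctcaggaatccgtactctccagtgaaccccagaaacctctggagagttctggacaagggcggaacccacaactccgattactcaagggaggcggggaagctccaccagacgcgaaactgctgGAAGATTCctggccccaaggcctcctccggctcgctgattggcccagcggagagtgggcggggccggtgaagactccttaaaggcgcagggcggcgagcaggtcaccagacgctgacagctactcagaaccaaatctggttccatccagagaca
A match describes the letters of the window only, and binding of Hsf1 was not measured.

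The libraries held between 33112459 and 56369917 estimated counts. Levels are given as CPM, counts brought to the same total in every library with TMM factors, and p-values come from edgeR's quasi-likelihood test with Benjamini-Hochberg adjustment over 13048 genes; a gene is called where the adjusted p is below 0.05. Whether the 4 replicates of a group are 4 animals is not stated in the labels, and the p-values then describe only how far these libraries vary, which may be technical. In whole muscle, fewer cells of a type and less RNA per cell cannot be told apart. Markers of fast fibres, the main fibres of this muscle, summed to 143082 to 261185 CPM, lowest in unloaded Notch2-mKO replicate 1. The Notch2-mKO minus WT value of Notch2 itself was 0.02 (log2, adjusted p = 0.993) in controls; counts cover the whole gene in all cell types, so its level does not check the label. Within controls, 24 of the 37 genes had their highest value in replicate 3 of Notch2-mKO and 24 in replicate 3 of WT. Of the treated libraries, unloaded WT replicate 1 was highest in its group for 25 and diabetic Notch2-mKO replicate 1 for 20. In the unloaded Notch2-mKO and diabetic WT groups no replicate was highest for more than 16 and 14. The share over all genes was not counted. The counts below are also given without replicate 3 of the controls, and at the end with each library left out in turn.

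In control muscle the 37 genes spanned a wide range of levels. Per kb of the longest coding transcript, the highest mean was that of Hspa8, the constitutive cytosolic Hsp70, with 623 ± 105 CPM per kb in Notch2-mKO controls and 749 ± 148 in WT controls (SD, n = 4 each). Cryab, Hspb6 and Hsp90ab1 followed in WT controls with 593 ± 125, 566 ± 61.9 and 502 ± 56.8 CPM per kb, and the ranges of these neighbours overlapped. The stress-inducible genes stood at the other end: Hspa1a had 2.28 ± 0.682 CPM per kb in Notch2-mKO controls and 1.83 ± 0.272 in WT controls, and Hspa1b had 1.73 ± 0.488 in Notch2-mKO controls and 1.82 ± 0.691 in WT controls. Hsp90ab1, the constitutive Hsp90, exceeded the inducible Hsp90aa1, at 3.23 ± 0.595 CPM per kb in WT controls, by more than the spread of either. The CCT subunits lay close together, between 33.7 (Cct4) and 78.5 CPM per kb (Cct5) in WT controls.

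**Figure D1:**
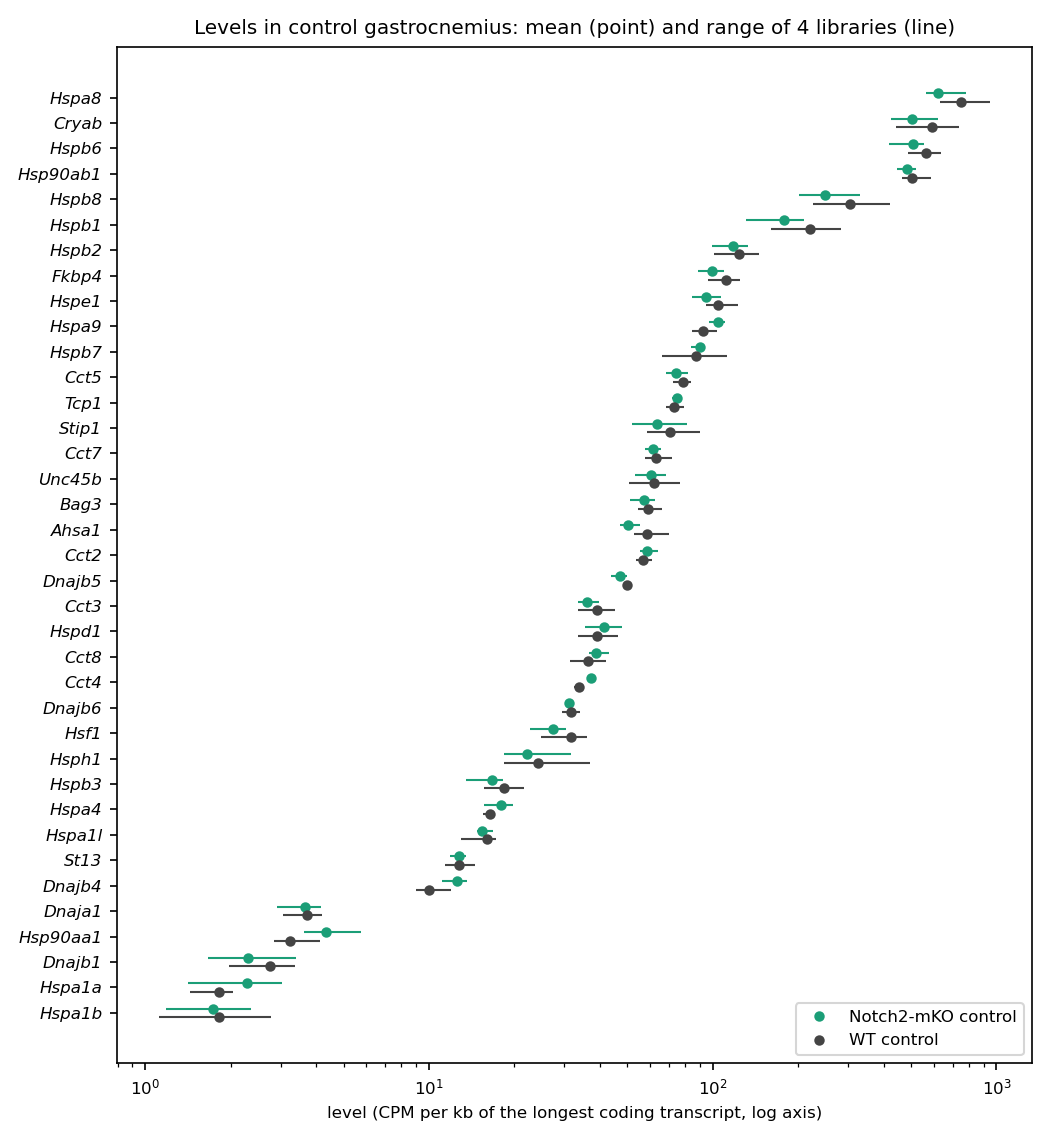
Levels of the 37 genes in control gastrocnemius, in CPM per kb of the longest coding transcript on a log axis; points are means and lines the range of 4 libraries, Notch2-mKO controls above WT controls for each gene. Hspa8 is highest and Hspa1a and Hspa1b are lowest.

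On unloading, Hspa8, Hsph1, Dnajb1, Stip1, Cryab and Hspa1a fell in both genotypes. These 6 genes make up 6 of the 7 called lower in Notch2-mKO and 6 of the 19 called lower in WT muscle. Of the 7 small heat shock genes, 5 were called lower in WT muscle, Cryab among them. The calls of Hspb1 and Hspb2 were not made once dependence on GC content and length was removed, as described below. In Notch2-mKO muscle 7 of the 37 genes were called, 0 higher and 7 lower, against 7.31% of all genes tested (4.11% higher and 3.2% lower). In WT muscle 27 were called, 8 higher and 19 lower, against 34.7% of all genes tested (18.4% higher and 16.3% lower). The median log2 fold change of the 37 was -0.14 in Notch2-mKO and -0.25 in WT muscle, with 0.02 and -0.02 over all genes. Without control replicate 3, 3 genes were called in Notch2-mKO, Hsph1, Dnajb1 and Cryab, and 18 in WT (5 higher, 13 lower). Here and below, counts with a library left out carry no share of all genes. A general loss of calls cannot be told apart in them.

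Diabetes changed Hspa8, Hsph1, Dnajb1, Stip1 and Hspe1 downward and Hsp90aa1, Hspa9 and Hspd1 upward in WT muscle, and no gene of the 37 passed the edgeR test in Notch2-mKO muscle. In WT muscle 18 of the 37 genes were called, 5 higher and 13 lower, against 33.4% of all genes tested (17.8% higher and 15.5% lower). With dependence on GC content and length removed, as described below, 0 of these 5 rises and 9 of these 13 falls were also called. In Notch2-mKO muscle edgeR called 0, against 5.59% of all genes tested (3.05% higher and 2.54% lower); 10 of the 37 had an unadjusted p under 0.05, against 22.1% of all genes, and DESeq2 called 1, St13, as higher, against 9.11% of all genes called by DESeq2 in either direction. The median log2 fold change of the 37 was -0.04 in Notch2-mKO and -0.18 in WT diabetic muscle, with -0.01 and -0.01 over all genes. In Notch2-mKO muscle all diabetic libraries lay below all controls for Hspa8, Hsph1, Hspb2, Hspb8, Hspa1l, Dnajb5 and Cct3. They lay above all controls for Hspb7, St13, Dnajb4 and Dnajb6 and overlapped them for the remaining 26. The share of all genes without overlap was not counted. Without WT control replicate 3 the WT count was 15 (5 higher, 10 lower). Unloading and diabetes are each set against the same 4 controls of a genotype, so their values are not independent of each other.

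Base composition moved with the groups. The mean log2 level of 1285 genes under 42% GC minus that of 2608 genes over 56% GC was -0.21 to 0.30 in unloaded and -0.02 to 0.32 in diabetic Notch2-mKO libraries, against -0.61 to 0.05 in their controls. It was 0.37 to 0.54 in unloaded and 0.21 to 0.57 in diabetic WT libraries, against -0.98 to -0.19 in WT controls. After removal of each library's smooth dependence of counts on transcript GC content and length (called the trend below), unloading called 9 of the 37 genes in Notch2-mKO (1 higher, 8 lower; 7.69% of all genes, 3.66% higher and 4.03% lower) and 17 in WT (1 higher, 16 lower; 26.6% of all genes, 10.9% higher and 15.7% lower). Diabetes then called 0 in Notch2-mKO (4.65% of all genes, 1.93% higher and 2.72% lower) and 13 in WT (1 higher, 12 lower; 24.3% of all genes, 10.3% higher and 14% lower). Of the 8 rises in unloaded WT muscle 1 was also called with the trend removed, and of the 19 falls 13 were; in diabetic WT muscle 0 of the 5 rises and 9 of the 13 falls were. The authors' own log2 scaling moved the median change of all genes up to between 0.09 and 0.19, and limma on it called 5 in unloaded Notch2-mKO (2 higher, 3 lower; 7.15% of all genes, 5.62% higher and 1.53% lower), 19 in unloaded WT (10 higher, 9 lower; 37.9% of all genes, 30.8% higher and 7.11% lower) and 17 in diabetic WT (12 higher, 5 lower; 36.9% of all genes, 30.5% higher and 6.4% lower). A value with the trend removed is given below wherever its removal ended a call, turned a direction or moved a called value by over 1.5 times.

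**Figure D2:**
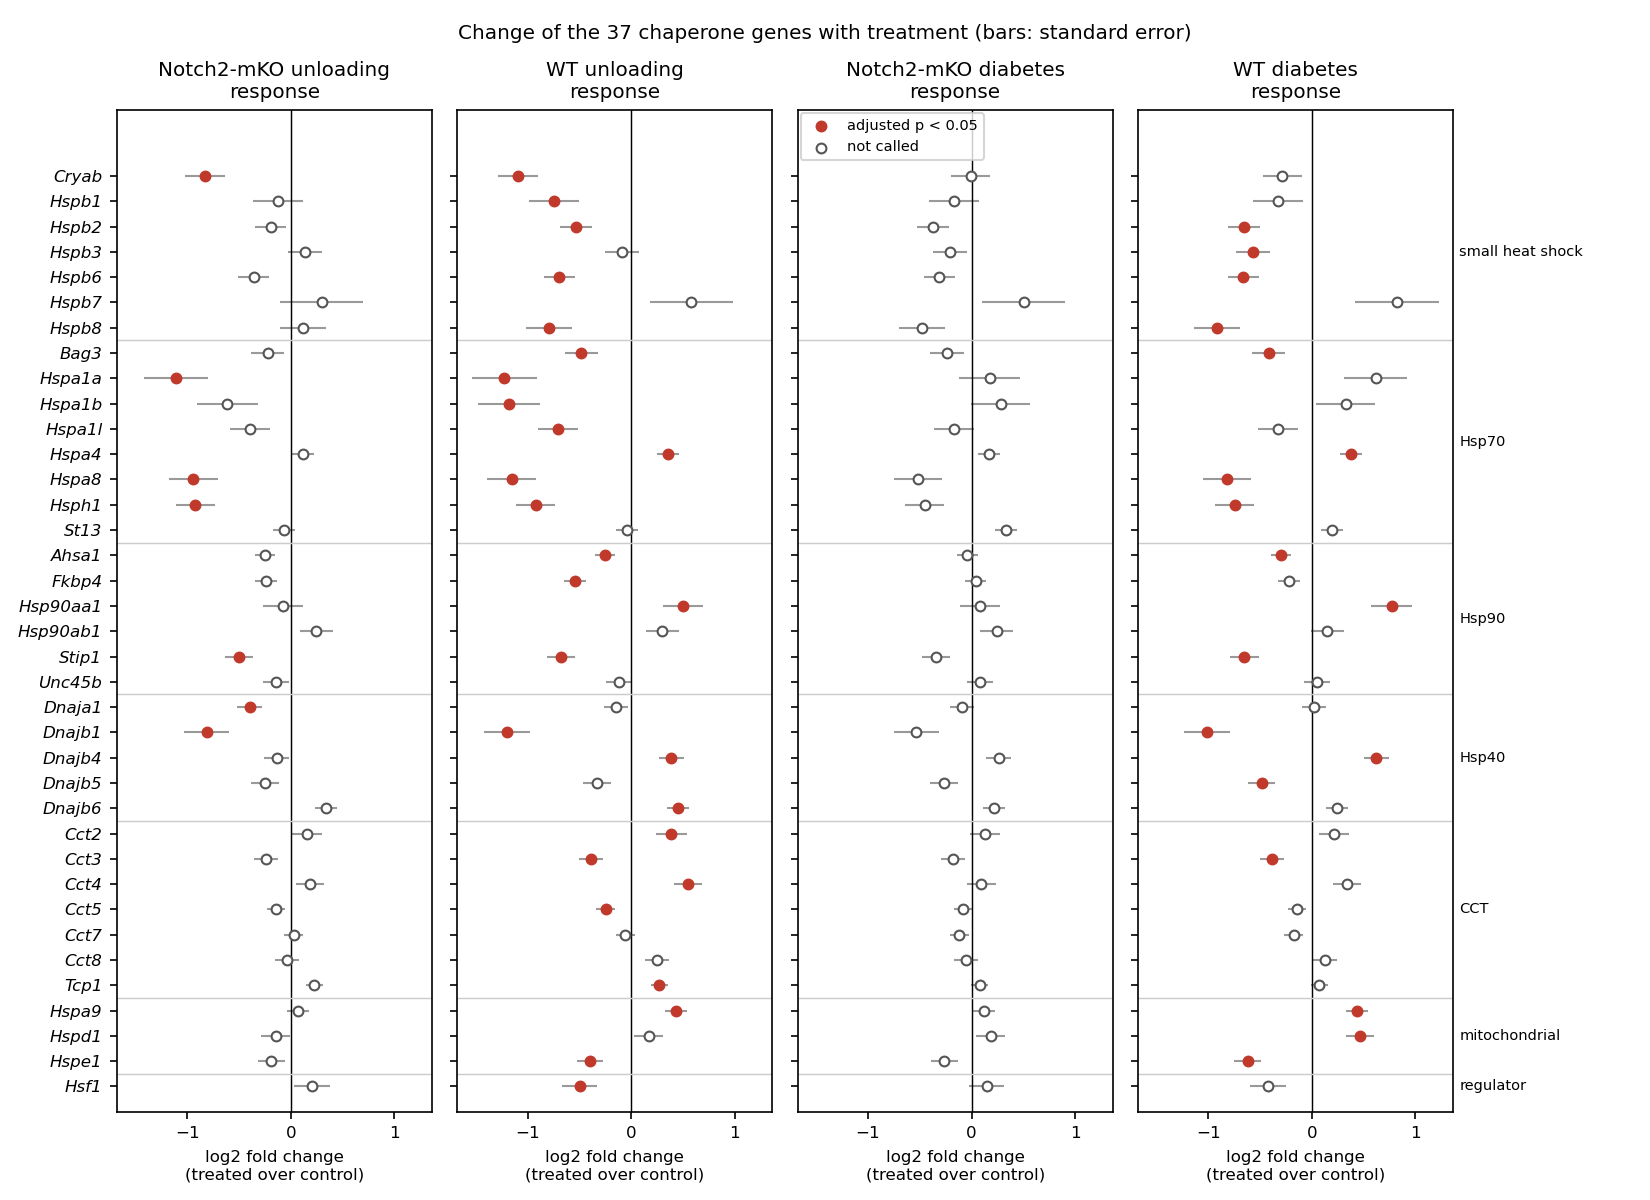
Log2 fold changes of the 37 genes by class, treated over control in each genotype, with standard errors from the edgeR fit; filled points have an adjusted p below 0.05. Hspa8, Hsph1, Dnajb1, Stip1 and Cryab lie to the left of 0 in both unloading panels, and no point is filled for diabetes in Notch2-mKO.

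**Figure D3:**
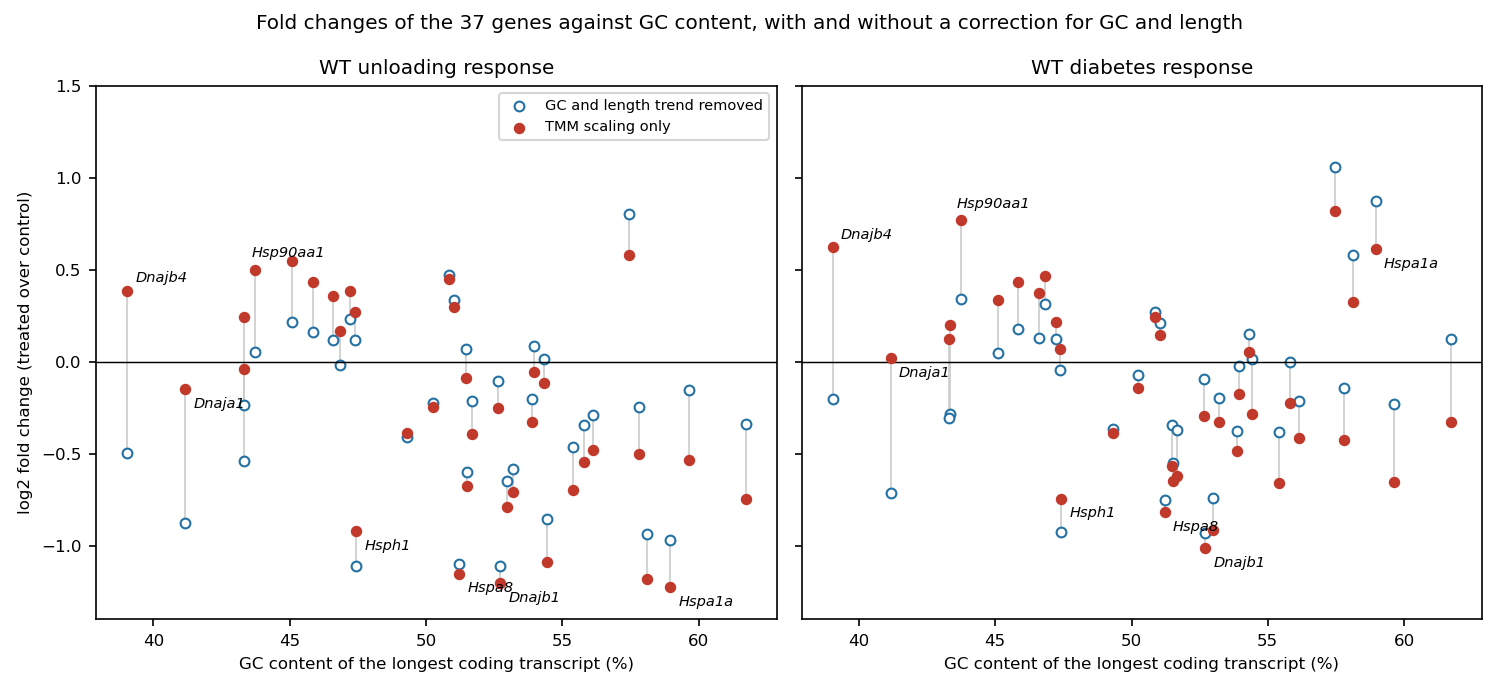
Log2 fold changes of the 37 genes in WT muscle against the GC content of the longest coding transcript, before (filled) and after (open) removal of the trend. Rises among genes of low GC content, such as Dnajb4 and Hsp90aa1, shrink or turn, whereas Hspa8, Hsph1 and Dnajb1 stay low.

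Of the 8 genes of the Hsp70 system, 3 fell and 0 rose on unloading in Notch2-mKO muscle, against 3.2% and 4.11% of all genes. In unloaded WT muscle 6 fell and 1 rose, against 16.3% and 18.4%. In diabetic WT muscle 3 fell and 1 rose, against 15.5% and 17.8%. Hspa8 (chromosome 9, 40800984 to 40810087, plus strand), the most abundant of them, had 329.9, 927, 655 and 1196 CPM in the 4 unloaded Notch2-mKO libraries, against 1360.0, 1349, 1868 and 1392 CPM in Notch2-mKO controls. In WT muscle it had 773, 874, 739.7 and 838 CPM after unloading, against 1831, 1548, 2279 and 1510.5 CPM in controls. Every unloaded library lay below every control of its genotype, with Notch2-mKO unloading replicate 1 far below the rest. The log2 fold change was -0.94, SE 0.24, adjusted p = 0.0189 in Notch2-mKO and -1.15, SE 0.24, adjusted p = 0.000574 in WT muscle. In Notch2-mKO the call was lost without Notch2-mKO control replicate 3 (log2 -0.83, adjusted p = 0.0568). In diabetic muscle Hspa8 had 1211, 1051, 1025 and 878 CPM in Notch2-mKO and 1102, 1098, 767 and 1095 CPM in WT mice, again below all controls of the same genotype. That change was called in WT (log2 fold change -0.82, SE 0.24, adjusted p = 0.00916) and not in Notch2-mKO muscle (-0.52, SE 0.23, adjusted p = 0.189).

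Hsph1 (chromosome 5, 149614287 to 149636376, minus strand), the Hsp110 exchange factor whose promoter is shown above, followed the same course. It had 50.001, 52.2, 38.6 and 37.6 CPM in unloaded Notch2-mKO muscle, against 72.9, 75.0, 120.1 and 70.042 CPM in its controls (log2 fold change -0.92, SE 0.19, adjusted p = 0.00716). In WT muscle it had 55.5, 54.7, 40.8 and 43.9 CPM after unloading and 64.1, 53.6, 54.4 and 48.2 CPM in diabetes, against 84.8, 74.0, 141 and 69.7 CPM in controls. Control replicate 3 of each genotype stood well above the other controls, and all treated libraries lay below all controls. The WT changes were -0.92, SE 0.19, adjusted p = 0.000594 for unloading and -0.75, SE 0.19, adjusted p = 0.00380 for diabetes. For diabetes, the value moved to -0.47 without WT control replicate 3. In diabetic Notch2-mKO muscle the 4 values lay between 58.1 and 65.1 CPM and did not pass (-0.45, SE 0.19, adjusted p = 0.155).

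Hspa1a (chromosome 17, 34969190 to 34972156, minus strand) and Hspa1b (chromosome 17, 34956436 to 34959238, minus strand), the heat-inducible Hsp70 pair, were identical at 99.4% of their aligned coding bases, so the division of reads between them is uncertain. Neither passed the test in diabetic muscle. Hspa1a had 4.47, 2.43, 2.44 and 3.21 CPM in unloaded and 6.40, 10.5, 7.90 and 5.69 CPM in diabetic Notch2-mKO muscle, against 4.20, 9.02, 7.45 and 6.38 CPM in controls. In WT muscle it had 3.60, 2.75, 1.53 and 1.33 CPM after unloading and 5.92, 8.24, 13.5 and 5.49 CPM in diabetes, against 5.91, 6.04, 5.46 and 4.27 CPM in controls. Unloaded WT libraries lay below all WT controls, whereas unloaded Notch2-mKO libraries overlapped theirs. Diabetic libraries overlapped controls in both genotypes. Unloading lowered Hspa1a in Notch2-mKO (log2 fold change -1.11, SE 0.31, adjusted p = 0.0306) and WT muscle (-1.23, SE 0.32, adjusted p = 0.00385). In Notch2-mKO the call was lost without Notch2-mKO control replicate 2, 3 or 4 or Notch2-mKO unloading replicate 2, 3 or 4 (log2 -1.14 to -0.95, adjusted p between 0.0542 and 0.0956). The diabetic values were 0.17, SE 0.30, adjusted p = 0.782 in Notch2-mKO and 0.61, SE 0.30, adjusted p = 0.120 in WT muscle, neither of which passed, though the WT value was 0.87 once the trend was removed (adjusted p = 0.0383). Hspa1b had 4.86, 2.79, 2.25 and 2.78 CPM in unloaded Notch2-mKO muscle, against 3.32, 6.60, 5.06 and 4.42 CPM in controls, which overlapped (log2 fold change -0.61, SE 0.29, adjusted p = 0.196). In WT muscle Hspa1b had 3.08, 1.90, 2.62 and 1.38 CPM after unloading and 5.19, 5.54, 10.3 and 4.61 CPM in diabetes, against 4.89, 7.76, 4.61 and 3.12 CPM in controls. It fell with unloading in WT muscle (log2 fold change -1.18, SE 0.30, adjusted p = 0.00349) and had 0.33, SE 0.29, adjusted p = 0.412 in diabetes. Hspa1a also shares 564 exonic bases with the gene model Gm20481 on the opposite strand, and whether the libraries keep strand is not given in the sources used here.

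Of the remaining Hsp70 genes, Hspa1l, the testis-type relative, fell in unloaded WT muscle (log2 fold change -0.71, SE 0.19, adjusted p = 0.00619), with 71.9% of its exonic bases shared with an antisense gene. Bag3, the exchange factor that routes damaged filamin and other clients to autophagy, fell in unloaded (-0.48, SE 0.16, adjusted p = 0.0216) and diabetic WT muscle (-0.42, SE 0.16, adjusted p = 0.0473). Neither Bag3 call was made with the trend removed (-0.29 and -0.21). For unloading the Bag3 call was lost without WT control replicate 3 or WT unloading replicate 2 or 3 (log2 -0.44 to -0.41, adjusted p between 0.0570 and 0.0746). For diabetes the Bag3 call was lost without WT control replicate 1, 2 or 3 or WT diabetes replicate 1, 2, 3 or 4 (log2 -0.44 to -0.36, adjusted p between 0.0561 and 0.126). Hspa4, another Hsp110-type exchange factor, rose in unloaded (0.36, SE 0.11, adjusted p = 0.0106) and diabetic WT muscle (0.37, SE 0.11, adjusted p = 0.00864), and neither rise was called with the trend removed (0.12 and 0.13). For unloading the Hspa4 call was lost without WT unloading replicate 1 (log2 0.27, adjusted p = 0.0615). St13, the Hsp70-interacting protein Hip, was not called by edgeR against controls in any of the 4 treatment comparisons and was called higher by DESeq2 in diabetic Notch2-mKO muscle; with the trend removed it was lower in unloaded (-0.54) and diabetic (-0.29) WT muscle.

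**Figure D4:**
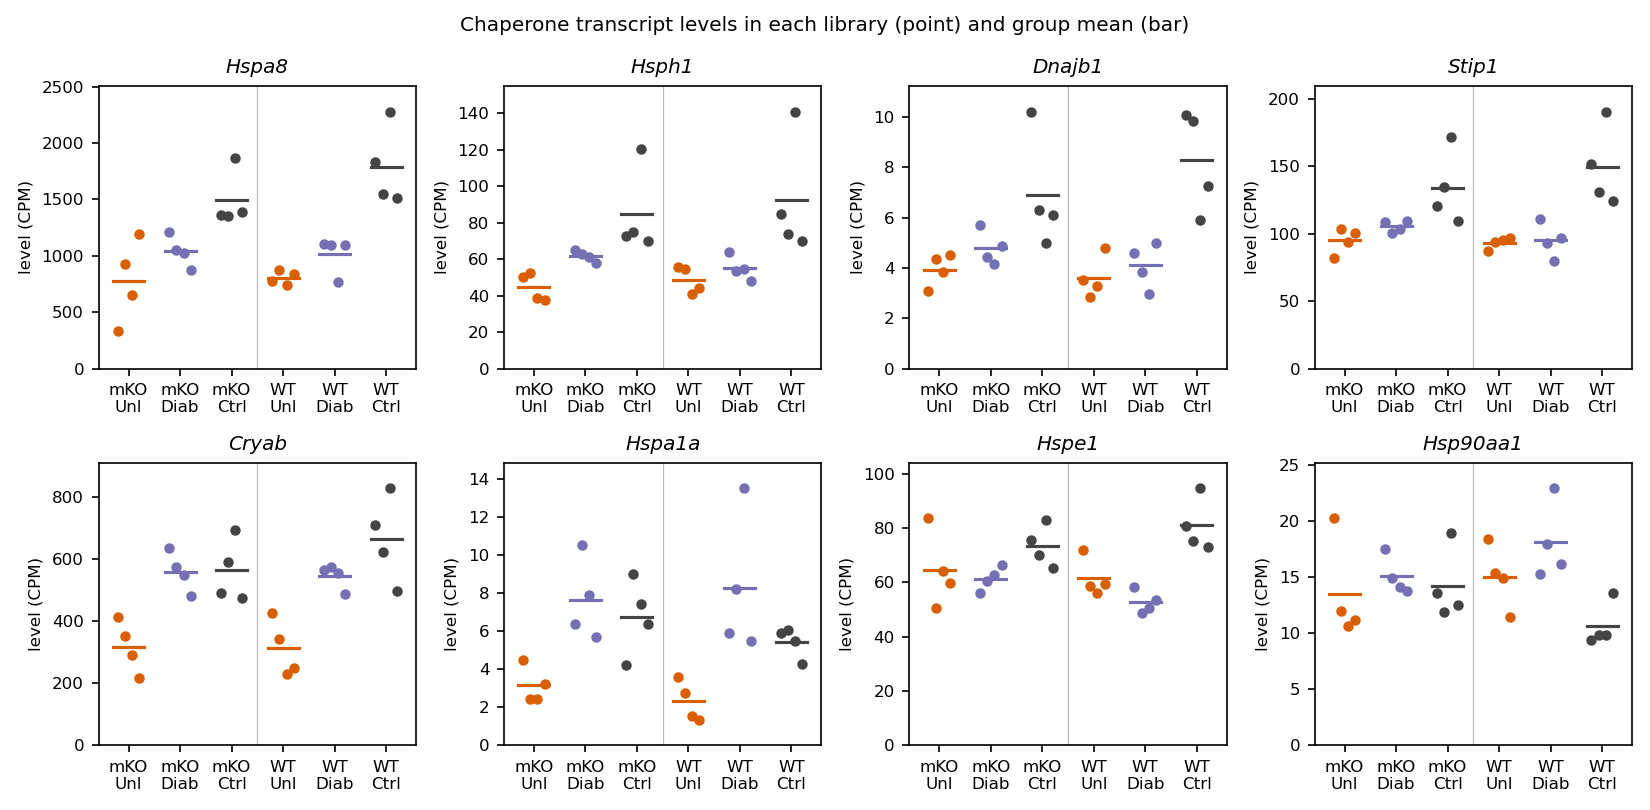
Levels of 8 chaperone genes in CPM, with points for the 4 libraries of each group and a bar for the mean; Notch2-mKO groups stand left of the WT groups, and unloaded and diabetic groups left of their controls. Hspa8, Hsph1, Dnajb1 and Stip1 are lower in unloaded than in control libraries, and Cryab and Hspa1a have their lowest group means after unloading in each genotype.

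Among the 5 Hsp40 genes, 2 fell on unloading in Notch2-mKO muscle, against 3.2% of all genes. In unloaded WT muscle 1 fell and 2 rose, against 16.3% and 18.4% of all genes. Dnajb1 (chromosome 8, 83608193 to 83612653, plus strand), the main cytosolic partner of heat-induced Hsp70, had 3.07, 4.33, 3.82 and 4.51 CPM in unloaded and 5.70, 4.42, 4.15 and 4.85 CPM in diabetic Notch2-mKO muscle, against 10.2, 6.31, 4.99 and 6.11 CPM in controls. In WT muscle it had 3.53, 2.83, 3.27 and 4.77 CPM after unloading and 4.59, 3.85, 2.95 and 4.99 CPM in diabetes, against 10.1, 9.83, 5.91 and 7.27 CPM in controls. Treated and control WT libraries did not overlap, and the controls themselves varied widely. Dnajb1 fell on unloading in Notch2-mKO (log2 fold change -0.81, SE 0.22, adjusted p = 0.0270) and WT muscle (-1.20, SE 0.22, adjusted p = 0.000198) and in diabetic WT muscle (-1.01, SE 0.22, adjusted p = 0.00102). In unloaded Notch2-mKO muscle the call was lost without Notch2-mKO control replicate 1 or Notch2-mKO unloading replicate 1 (log2 -0.72 to -0.57, adjusted p between 0.0742 and 0.0919). In diabetic Notch2-mKO muscle the value was -0.53, SE 0.22, adjusted p = 0.146.

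Dnaja1, an Hsp40 that works with Hspa8, fell in unloaded Notch2-mKO muscle (log2 fold change -0.40, SE 0.12, adjusted p = 0.0412; 16.6, 15.1, 14.8 and 16.0 CPM, against 22.6, 16.4, 23.5 and 19.9 CPM in controls). With the trend removed the value was -0.61 (adjusted p = 0.00613). The Dnaja1 call was lost without Notch2-mKO control replicate 1, 3 or 4 or Notch2-mKO unloading replicate 1, 2, 3 or 4 (log2 -0.43 to -0.34, adjusted p between 0.0516 and 0.111). Dnaja1 was then also lower in unloaded (-0.88, adjusted p = 3.12e-05) and diabetic WT muscle (-0.71, adjusted p = 0.000267), where the uncorrected values of -0.15 and 0.02 were not called. Dnajb6 (chromosome 5, 29735688 to 29818134, plus strand), which binds aggregation-prone proteins and lies at the Z-disc, rose in unloaded WT muscle. It had 152, 131, 107 and 117 CPM there, against 99.7, 85.8, 91.9 and 93.5 CPM in controls (log2 fold change 0.45, SE 0.11, adjusted p = 0.00211), and it was the only gene of the 37 whose rise on unloading in WT muscle was also called with the trend removed (0.47). In unloaded Notch2-mKO muscle Dnajb6 had 101, 121, 105 and 132 CPM, against 94.3, 92.0, 88.8 and 88.3 CPM in controls, with no overlap (log2 fold change 0.34, SE 0.11, adjusted p = 0.0537; 0.34 with the trend removed, adjusted p = 0.0385). Dnajb6 and Hsph1, whose windows above both hold the longer element, moved in opposite directions in unloaded WT muscle.

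Dnajb4 (chromosome 3, 152178511 to 152210302, minus strand), a J-domain protein of muscle, has a GC content of 39.0%, and its direction depended on the trend. It had 36.7, 34.4, 32.8 and 25.4 CPM in unloaded and 35.0, 37.3, 42.5 and 37.6 CPM in diabetic WT muscle, against 22.1, 24.4, 23.0 and 29.4 CPM in WT controls. Both were called as rises (0.39, SE 0.12, adjusted p = 0.0156 for unloading and 0.62, SE 0.12, adjusted p = 0.000419 for diabetes), and both turned with the trend removed, to -0.49 (adjusted p = 0.000825) and -0.20 (adjusted p = 0.143). For unloading the Dnajb4 call was lost without WT control replicate 1 or 3 or WT unloading replicate 1 (log2 0.32 to 0.34, adjusted p between 0.0600 and 0.0676). In unloaded Notch2-mKO muscle Dnajb4 was not called (-0.14, SE 0.12, adjusted p = 0.518), and it was lower with the trend removed (-0.50, adjusted p = 0.00577). Dnajb5, an Hsp40 that binds histone deacetylase in heart muscle, fell in diabetic WT muscle (log2 fold change -0.49, SE 0.13, adjusted p = 0.00705).

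Of the 6 genes of the Hsp90 system, 1 fell on unloading in Notch2-mKO muscle, against 3.2% of all genes. In unloaded WT muscle 3 fell and 1 rose, against 16.3% and 18.4% of all genes. Stip1 (chromosome 19, 7020702 to 7039967, minus strand), also called Hop, hands clients from Hsp70 to Hsp90. It had 81.9, 103, 93.8 and 100.5 CPM in unloaded Notch2-mKO muscle, against 121, 135, 172 and 109 CPM in controls (log2 fold change -0.50, SE 0.14, adjusted p = 0.0271). In WT muscle it had 87.1, 93.6, 95.5 and 96.8 CPM after unloading and 111, 93.0, 79.5 and 96.4 CPM in diabetes, against 151, 131, 190.3 and 124 CPM in controls. No treated WT library reached any control. The WT changes were -0.68, SE 0.14, adjusted p = 0.000447 for unloading and -0.65, SE 0.14, adjusted p = 0.000728 for diabetes. In unloaded Notch2-mKO muscle the call was lost without Notch2-mKO control replicate 2 or 3 or Notch2-mKO unloading replicate 1 (log2 -0.51 to -0.37, adjusted p between 0.0557 and 0.0987). The diabetic value in Notch2-mKO was -0.35, SE 0.13, adjusted p = 0.126.

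Fkbp4 (chromosome 6, 128429735 to 128438677, minus strand), an Hsp90-bound immunophilin, had 158, 172, 180.1 and 167 CPM in unloaded WT muscle, below all 4 controls at 261, 234, 278 and 214 CPM (log2 fold change -0.55, SE 0.10, adjusted p = 0.000285; -0.34 with the trend removed). Ahsa1, which stimulates the ATPase of Hsp90, fell in unloaded (-0.25, SE 0.10, adjusted p = 0.0495) and diabetic WT muscle (-0.30, SE 0.10, adjusted p = 0.0231), and neither call was made with the trend removed (-0.10 and -0.10). For unloading the Ahsa1 call was lost without WT control replicate 1 or 3 or WT unloading replicate 1, 2, 3 or 4 (log2 -0.28 to -0.17, adjusted p between 0.0612 and 0.201). For diabetes the Ahsa1 call was lost without WT control replicate 3 or WT diabetes replicate 3 (log2 -0.24 to -0.20, adjusted p between 0.0872 and 0.130). Neither Hsp90 gene was called lower. Hsp90aa1 (chromosome 12, 110690605 to 110702728, minus strand), the inducible form, had 18.4, 15.3, 14.9 and 11.4 CPM in unloaded and 15.2, 17.9, 22.9 and 16.2 CPM in diabetic WT muscle, against 9.32, 9.80, 9.79 and 13.5 CPM in controls. Diabetic libraries lay above all controls, and unloaded libraries overlapped them. It was called higher in both (0.50, SE 0.20, adjusted p = 0.0493 for unloading and 0.77, SE 0.20, adjusted p = 0.00390 for diabetes), and in neither with the trend removed (0.05 and 0.34). For unloading the Hsp90aa1 call was lost without WT control replicate 1, 2 or 3 or WT unloading replicate 1, 2 or 3 (log2 0.39 to 0.51, adjusted p between 0.0759 and 0.162). In Notch2-mKO muscle Hsp90aa1 ran from 10.6 to 20.2 CPM after unloading and 13.8 to 17.5 CPM in diabetes, against 11.9 to 18.9 CPM in controls. Hsp90ab1 and the myosin chaperone Unc45b were not called in any of the 4 comparisons.

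Of the 7 small heat shock genes, 1 fell and 0 rose on unloading in Notch2-mKO muscle, against 3.2% and 4.11% of all genes. In unloaded WT muscle 5 fell and 0 rose, against 16.3% and 18.4%. In diabetic WT muscle 4 fell and 0 rose, against 15.5% and 17.8%. Cryab (chromosome 9, 50751325 to 50756636, plus strand), alpha B-crystallin, is a holdase abundant in slow and oxidative fibres. It had 412, 349.8, 291 and 216 CPM in unloaded Notch2-mKO muscle, against 489.8, 590.0, 693 and 475 CPM in controls (log2 fold change -0.83, SE 0.19, adjusted p = 0.0130). In unloaded WT muscle it had 425, 342, 230.2 and 249 CPM, against 709, 620.0, 827 and 496 CPM in controls (log2 fold change -1.09, SE 0.19, adjusted p = 0.000132). Both unloaded groups lay wholly below their controls. Diabetic libraries had 633, 573, 548 and 479 CPM in Notch2-mKO and 564, 573, 555 and 485 CPM in WT mice and overlapped controls (-0.01, SE 0.19, adjusted p = 0.985 in Notch2-mKO and -0.28, SE 0.19, adjusted p = 0.265 in WT muscle). Slow and oxidative fibre markers were lower in sum in the same libraries: their level was 1007 to 2883 CPM in unloaded Notch2-mKO muscle, against 4043 to 4749 CPM in controls, and 969 to 2804 CPM in unloaded WT muscle, against 2946 to 4791 CPM in controls. Of these 8 markers 2 fell in Notch2-mKO and 3 in WT muscle, against 3.2% and 16.3% of all genes. In diabetes 0 of the 8 were called in either genotype, with 0 in Notch2-mKO and 0 in WT muscle at an unadjusted p under 0.05 (against 22.1% and 43% of all genes) and 0 in either by DESeq2, and the summed level was 3632 to 4525 CPM in Notch2-mKO and 3200.0 to 4125 CPM in WT muscle. Their part in the change of Cryab was not tested.

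Hspb6 (chromosome 7, 30552178 to 30555443, plus strand), Hsp20, fell with both treatments in WT muscle, to 503, 577, 337 and 489 CPM after unloading and 521, 490.4, 408 and 533 CPM in diabetes, against 794, 762, 867 and 664 CPM in controls. No treated library reached a control (-0.70, SE 0.15, adjusted p = 0.000910 for unloading and -0.66, SE 0.15, adjusted p = 0.00154 for diabetes). With the trend removed the values were -0.47 and -0.38, the second over 1.5 times smaller, and both stayed called. In Notch2-mKO muscle Hspb6 ran from 416 to 686 CPM after unloading and 506 to 588 CPM in diabetes, against 571 to 756 CPM in controls, and was not called. Hspb2 (chromosome 9, 50751078 to 50752354, minus strand), a partner of the myotonic dystrophy kinase, also fell in WT muscle, to 63.3, 61.8, 68.1 and 71.3 CPM after unloading and 81.5, 60.6, 41.1 and 60.3 CPM in diabetes, against 92.5, 101, 112 and 78.3 CPM in controls (-0.54, SE 0.15, adjusted p = 0.00867 and -0.66, SE 0.15, adjusted p = 0.00201). Neither call was made with the trend removed (-0.15 and -0.23), and the GC content of Hspb2 is 59.6%. In Notch2-mKO muscle Hspb2 was not called, with unloaded libraries overlapping controls and diabetic libraries below all of them. Hspb2 shares 30.2% of its exonic bases with Cryab on the opposite strand, and whether the libraries keep strand is not given.

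Hspb8, which pairs with Bag3, fell in unloaded (-0.79, SE 0.22, adjusted p = 0.00756) and diabetic WT muscle (-0.91, SE 0.22, adjusted p = 0.00284), and both calls were also made with the trend removed (-0.65 and -0.74). Hspb1, Hsp25 in mouse, fell in unloaded WT muscle (log2 fold change -0.74, SE 0.24, adjusted p = 0.0201), a call not made with the trend removed (-0.34). For Hspb1 the call was lost without WT control replicate 3 or WT unloading replicate 2, 3 or 4 (log2 -0.66 to -0.61, adjusted p between 0.0642 and 0.0763), and the value moved to -1.13 without WT unloading replicate 1. Unloaded WT replicate 1 had 208 CPM of Hspb1, within the controls at 149.8 to 262 CPM. Hspb3, a muscle-specific member, fell in diabetic WT muscle (log2 fold change -0.57, SE 0.16, adjusted p = 0.00986; -0.34 and not called with the trend removed). For Hspb3 the call was lost without WT diabetes replicate 3 (log2 -0.44, adjusted p = 0.0501). Hspb7, which binds filamin, was not called in any comparison. Its 4 libraries spread widest of the class in unloaded WT muscle, with 849, 343, 139 and 116 CPM.

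On unloading in WT muscle 3 of the 7 measured subunits of the CCT ring were called higher and 2 lower. The shares of all genes were 18.4% and 16.3%. In Notch2-mKO muscle edgeR called 0 subunits, against 7.31% of all genes. There 2 had an unadjusted p under 0.05 and DESeq2 called 1, Tcp1, against 24.7% and 12.6% of all genes. On the authors' log2 scaling limma called 4 higher and 0 lower in unloaded WT muscle, against 30.8% and 7.11% of all genes. Tcp1 (chromosome 17, 12915701 to 12925067, plus strand), the alpha subunit, had 224, 209, 218 and 214 CPM in unloaded WT muscle, above all controls at 171, 168, 185 and 194 CPM (log2 fold change 0.27, SE 0.08, adjusted p = 0.0123; 0.12 and not called with the trend removed). In unloaded Notch2-mKO muscle it had 213, 213, 214 and 217 CPM, above all controls at 179.8, 190.4, 186 and 176 CPM (log2 fold change 0.23, SE 0.08, adjusted p = 0.0865). Tcp1 shares 19.965% of its exonic bases with Acat3 on the opposite strand. Cct4 (chromosome 11, 22990519 to 23003780, plus strand), the delta subunit, had 152, 124, 117 and 96.7 CPM in unloaded WT muscle, against 80.9, 84.6, 86.1 and 83.0 CPM in controls (log2 fold change 0.55, SE 0.14, adjusted p = 0.00300; 0.22 and not called with the trend removed). Cct2 rose in unloaded WT muscle (log2 fold change 0.39, SE 0.15, adjusted p = 0.0435; 0.23 and not called with the trend removed). For Cct2 the call was lost without WT control replicate 1, 2, 3 or 4 or WT unloading replicate 1 or 2 (log2 0.27 to 0.41, adjusted p between 0.0553 and 0.183).

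Cct3 (chromosome 3, 88297116 to 88321767, plus strand), the gamma subunit, went the other way. It had 71.1, 56.8, 56.9 and 52.0 CPM in unloaded and 66.2, 62.3, 56.9 and 51.7 CPM in diabetic WT muscle, against 81.8, 72.0, 89.4 and 66.4 CPM in controls (-0.39, SE 0.12, adjusted p = 0.0110 for unloading and -0.39, SE 0.12, adjusted p = 0.0118 for diabetes). Both falls were also called with the trend removed (-0.41 and -0.36). For diabetes the Cct3 call was lost without WT control replicate 3 (log2 -0.31, adjusted p = 0.0545). Cct5 fell slightly in unloaded WT muscle (log2 fold change -0.25, SE 0.09, adjusted p = 0.0335). For Cct5 the call was lost without WT control replicate 1 or 3 or WT unloading replicate 1, 2 or 3 (log2 -0.25 to -0.23, adjusted p between 0.0617 and 0.0819). Cct7 and Cct8 were not called against controls, and with the trend removed Cct8 was lower in diabetic WT muscle (-0.31, adjusted p = 0.0475).

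The 3 mitochondrial chaperones did not move together. Hspa9, the matrix Hsp70 mortalin that pulls proteins through the import pore, had 436, 392.3, 362 and 329 CPM in unloaded and 322, 377, 416 and 400.2 CPM in diabetic WT muscle, all above the controls at 258, 281, 270.0 and 315 CPM. Both rises were called (0.44, SE 0.11, adjusted p = 0.00271 and 0.43, SE 0.11, adjusted p = 0.00317), and neither with the trend removed (0.16 and 0.18). Hspd1 (chromosome 1, 55077835 to 55088243, minus strand) and Hspe1 (chromosome 1, 55088132 to 55091307, plus strand), Hsp60 and its lid Hsp10, lie head to head and share the promoter region shown above. Hspd1 had 129.8, 144, 108 and 140.0 CPM in diabetic WT muscle, against 82.6, 81.4, 102 and 112 CPM in controls (log2 fold change 0.46, SE 0.14, adjusted p = 0.0124; 0.32 and not called with the trend removed). For Hspd1 the call was lost without WT control replicate 1 or 2 (log2 0.40 to 0.41, adjusted p between 0.0506 and 0.0519). Hspe1 had 72.0, 58.7, 56.2 and 59.6 CPM in unloaded and 58.2, 48.6, 50.4 and 53.6 CPM in diabetic WT muscle, all below the controls at 80.9, 75.4, 94.8 and 73.2 CPM. It fell in unloaded (-0.40, SE 0.13, adjusted p = 0.0174; -0.22 and not called with the trend removed) and diabetic WT muscle (-0.62, SE 0.13, adjusted p = 0.000630; -0.37 with the trend removed, still called). For unloading the Hspe1 call was lost without WT control replicate 3 or WT unloading replicate 3 (log2 -0.35 to -0.33, adjusted p between 0.0555 and 0.0656).

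These neighbours can be set against each other within each library, a comparison chosen after the values were seen. The log2 ratio of Hspd1 to Hspe1 was 1.24, 0.88, 0.61 and 0.83 in diabetic Notch2-mKO libraries, against 0.47, 0.29, 0.49 and 0.54 in Notch2-mKO controls. In WT libraries it was 1.16, 1.57, 1.11 and 1.38 in diabetes, against 0.03, 0.11, 0.11 and 0.62 in controls. Diabetic libraries lay above all controls in both genotypes. The mean difference was 0.44, exact p = 0.0286, adjusted p = 0.0571 in Notch2-mKO and 1.09, exact p = 0.0286, adjusted p = 0.0571 in WT muscle, by a two-sided exact permutation test whose smallest possible p is 0.0286, adjusted over 8 tests. For unloading the differences were 0.05, exact p = 0.800, adjusted p = 0.800 in Notch2-mKO and 0.58, exact p = 0.0571, adjusted p = 0.0914 in WT muscle. No adjusted p was below 0.05. Cryab and Hspb2 form a second head-to-head pair, with 252 exonic bases shared on opposite strands, so the division of reads between them is uncertain. Their log2 ratio differed by -0.65, exact p = 0.0286, adjusted p = 0.0571 on unloading and 0.37, exact p = 0.0286, adjusted p = 0.0571 in diabetes in Notch2-mKO, and by -0.58, exact p = 0.0857, adjusted p = 0.114 and 0.42, exact p = 0.114, adjusted p = 0.131 in WT muscle. The sign was negative for unloading and positive for diabetes in both genotypes. With each library's trend taken out of the ratio, an alternative chosen after seeing the data, the Hspd1 to Hspe1 difference in diabetes was 0.26, exact p = 0.114 in Notch2-mKO muscle, where diabetic libraries then overlapped controls, and 0.69, exact p = 0.0286 in WT muscle, where they lay above all controls. For unloading it was -0.075, exact p = 0.686 in Notch2-mKO and 0.21, exact p = 0.171 in WT muscle. The Cryab to Hspb2 difference was then -0.69, exact p = 0.0286 on unloading and 0.29, exact p = 0.0571 in diabetes in Notch2-mKO, and -0.74, exact p = 0.0286 and 0.27, exact p = 0.286 in WT muscle, and the smallest of these 8 p adjusted over them was 0.0762.

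**Figure D5:**
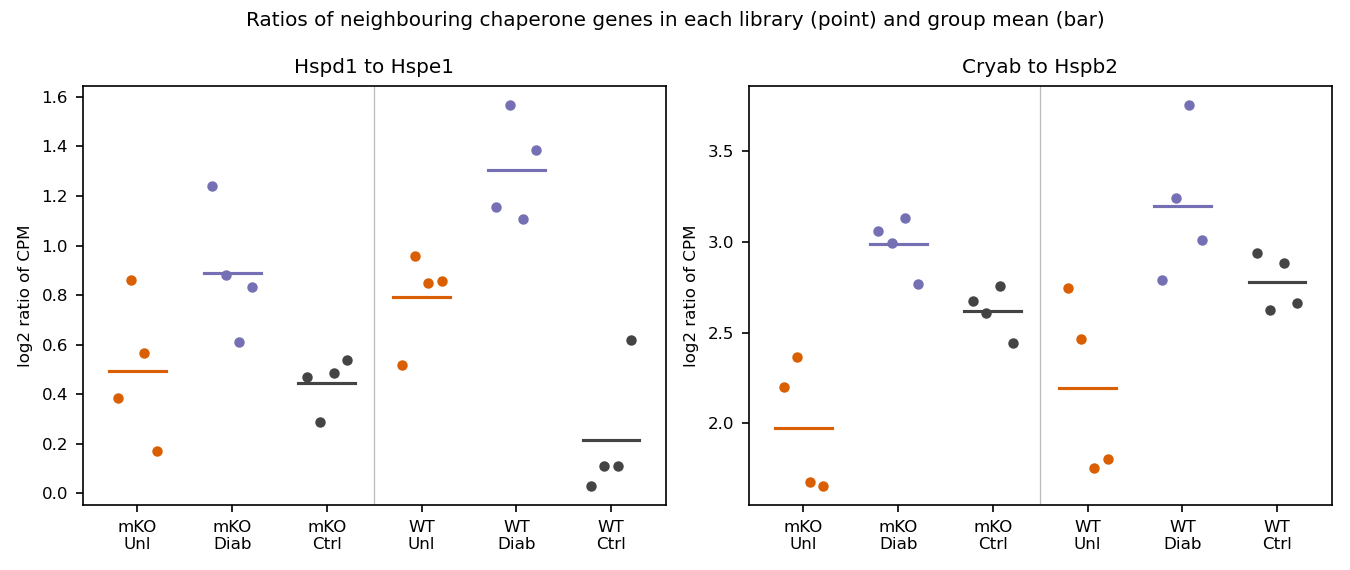
Log2 ratios of CPM for the neighbouring pairs Hspd1 to Hspe1 (left) and Cryab to Hspb2 (right), with points for libraries and bars for means; Notch2-mKO groups stand left of WT groups and treated groups left of their controls. The Hspd1 to Hspe1 ratio is above all controls in diabetic libraries of both genotypes, and the mean Cryab to Hspb2 ratio is below controls after unloading and above them in diabetes.

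Hsf1 (chromosome 15, 76477422 to 76501913, plus strand), the regulator of the heat shock response, had 56.6, 46.8, 42.3 and 43.3 CPM in unloaded WT muscle, against 72.1, 66.9, 75.8 and 52.3 CPM in controls, with overlap (log2 fold change -0.50, SE 0.17, adjusted p = 0.0252; -0.25 and not called with the trend removed). For Hsf1 the call was lost without WT control replicate 1 or 3 or WT unloading replicate 2, 3 or 4 (log2 -0.49 to -0.45, adjusted p between 0.0535 and 0.0711). In unloaded Notch2-mKO muscle it had 95.2, 57.8, 51.9 and 60.6 CPM, against 48.0, 64.1, 62.9 and 55.5 CPM in controls (log2 fold change 0.20, SE 0.17, adjusted p = 0.487). Its activity was not measured.

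Diabetes and unloading were also compared directly within each genotype, which needs no control library; this comparison was added after the values were seen. It called 3 of the 37 genes higher and 0 lower in Notch2-mKO muscle (against 1.95% and 1.12% of all genes, 3.07% in all) and 3 higher and 0 lower in WT muscle (against 2.31% and 1.24%, 3.56% in all). With single libraries left out the count ran from 0 to 5 in Notch2-mKO and from 2 to 4 in WT muscle. In Notch2-mKO muscle it was 0 without unloaded replicate 3 or diabetic replicate 2, 1 without unloaded replicate 2 or 4 or diabetic replicate 1, and 5 without unloaded replicate 1. DESeq2 called 5 in Notch2-mKO and 4 in WT muscle, against 4.57% and 5.34% of all genes, and limma on the authors' log2 values called 0 in Notch2-mKO muscle, against 2.43%. Cryab was higher in diabetic than in unloaded muscle in Notch2-mKO (log2 fold change 0.82, SE 0.19, adjusted p = 0.0185) and WT mice (0.81, SE 0.19, adjusted p = 0.0174), with no overlap of libraries. Hspa1a differed more, in Notch2-mKO (1.28, SE 0.31, adjusted p = 0.0210) and WT muscle (1.84, SE 0.31, adjusted p = 0.00162). Hspa1b was called in WT (1.51, SE 0.30, adjusted p = 0.00470) and not in Notch2-mKO muscle (0.89, SE 0.29, adjusted p = 0.104), and St13 in Notch2-mKO (0.40, SE 0.10, adjusted p = 0.0369; 0.36 and not called with the trend removed) and not in WT muscle (0.24, SE 0.10, adjusted p = 0.245). Whether these differences themselves differ between genotypes was not tested. In Notch2-mKO muscle, for Cryab the call was lost without Notch2-mKO unloading replicate 3 or 4 or Notch2-mKO diabetes replicate 1 or 2 (log2 0.68 to 0.80, adjusted p between 0.0521 and 0.0600). For Hspa1a the call was lost without Notch2-mKO unloading replicate 2 or 3 or Notch2-mKO diabetes replicate 2 (log2 1.08 to 1.20, adjusted p between 0.0595 and 0.104). For St13 the call was lost without Notch2-mKO unloading replicate 2, 3 or 4 or Notch2-mKO diabetes replicate 1, 2, 3 or 4 (log2 0.35 to 0.42, adjusted p between 0.0595 and 0.119). In WT muscle, for Cryab the call was lost without WT unloading replicate 3 or 4 (log2 0.69 to 0.71, adjusted p between 0.0635 and 0.0664). Hspa8, Hsph1, Dnajb1 and Stip1, lowered by both treatments in WT muscle, were not called here, with values of 0.33, 0.18, 0.19 and 0.03.

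Between the genotypes, edgeR called 0 of the 37 genes, and 0 genes in all, in controls, unloading or diabetes, and 0 for a difference in the response to either treatment. DESeq2 also called 0 of the 37 in each, against 0.023%, 0.0383% and 0% of all genes in controls, unloading and diabetes and 1.19% and 0.00929% for the difference in response to unloading and diabetes. At an unadjusted p under 0.05 there were 3 members in controls, 4 in unloading and 1 in diabetes, and 6 and 4 for the difference in response to unloading and diabetes. Over all genes the shares at that p were 5.33%, 10.3%, 5.3%, 14.4% and 8.75% in the same order. The difference in response, Notch2-mKO minus WT, ran from -0.58 to 0.91 (log2) for unloading, with a smallest adjusted p of 0.184, and from -0.69 to 0.57 for diabetes, with a smallest adjusted p of 0.506. For Hspa8 the difference was 0.21, SE 0.33, adjusted p = 0.826 for unloading and 0.30, SE 0.33, adjusted p = 0.833 for diabetes. Each gene's difference in response was thus tested, and with all libraries 0 of the 37 were called. The smaller number of genes called in Notch2-mKO than in WT muscle was not itself tested. Without WT control replicate 4, Dnajb4 was called for a difference in the response to unloading.

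A wider list of 66 other chaperone and co-chaperone genes, 62 of them measured well enough to test, was counted in the same way. On unloading 6 rose and 3 fell in Notch2-mKO muscle (against 4.11% and 3.2% of all genes), and 18 rose and 10 fell in WT muscle (against 18.4% and 16.3%). In diabetes 5 rose and 1 fell in Notch2-mKO (against 3.05% and 2.54%), and 15 rose and 6 fell in WT muscle (against 17.8% and 15.5%). With the trend removed the Notch2-mKO counts were 4 higher and 4 lower for unloading (against 3.66% and 4.03% of all genes) and 2 higher and 4 lower for diabetes (against 1.93% and 2.72%). The WT counts were then 13 higher and 15 lower for unloading (against 10.9% and 15.7%) and 15 higher and 15 lower for diabetes (against 10.3% and 14%). In unloaded WT muscle the wider list had a median log2 fold change of 0.10, against -0.02 over all genes tested. Dnajc2, a ribosome-bound Hsp40, rose in all 4 comparisons, by 0.91 (adjusted p = 0.00322) and 1.38 (2.73e-06) on unloading and by 0.68 (0.0196) and 1.14 (2.39e-05) in diabetes, in Notch2-mKO and WT muscle in that order. For diabetic Notch2-mKO muscle the Dnajc2 call was lost without Notch2-mKO control replicate 2 or 4 or Notch2-mKO diabetes replicate 3 or 4 (log2 0.62 to 0.67, adjusted p between 0.0510 and 0.0759). Ptges3, the Hsp90 co-chaperone p23, rose in unloaded (1.06, adjusted p = 0.000793) and diabetic WT muscle (1.45, adjusted p = 5.03e-05), with 0.59 and 1.04 once the trend was removed. Clpx, the unfoldase of the mitochondrial ClpXP protease, rose in both as well (0.90 and 0.78; 0.53 and 0.45 with the trend removed), and so did the import receptor Tomm70a (0.999 and 0.91), though not with the trend removed (0.24 and 0.14). Bag2, which inhibits the Hsp70-bound ligase Stub1, fell in unloaded (-0.55) and diabetic WT muscle (-0.68), and the exchange factor Hspbp1 did too (-0.77 and -0.62), the second not called with the trend removed (-0.28). Sirt1, a deacetylase that prolongs the DNA binding of Hsf1, rose in unloaded (1.14) and diabetic WT muscle (1.23), by 0.70 and 0.78 with the trend removed. Vbp1, a prefoldin subunit, was called higher in both (0.73 and 0.64) and lower in both with the trend removed (-0.45 and -0.44). Hsf2, a relative of Hsf1, was called higher in both (0.76 and 0.52), and in neither with the trend removed (0.07 and -0.12). Trap1, the mitochondrial Hsp90, rose in unloaded WT muscle (0.50), and Dnajc7 rose in unloaded (0.81) and diabetic WT muscle (0.51). The small heat shock relative Hspb11 was not called by edgeR in any of the 4 comparisons, and was lower in diabetic WT muscle with the trend removed (-0.57). In diabetes the Hsf2 call was lost without WT diabetes replicate 3 (log2 0.39, adjusted p = 0.0734). Unloading in Notch2-mKO also raised Trap1 (0.40, adjusted p = 0.0151) and Tomm70a (0.45, adjusted p = 0.0358), the second not with the trend removed (0.23). The Trap1 call was lost without Notch2-mKO control replicate 4 or Notch2-mKO unloading replicate 4 (log2 0.31 to 0.36, adjusted p between 0.0535 and 0.0567). The Tomm70a call was lost without Notch2-mKO control replicate 2, 3 or 4 or Notch2-mKO unloading replicate 1, 2 or 4 (log2 0.34 to 0.47, adjusted p between 0.0532 and 0.144). In diabetic Notch2-mKO muscle Clpx (0.46, adjusted p = 0.0283), Sirt1 (0.73, adjusted p = 0.0412) and Tomm70a (0.48, adjusted p = 0.0320) were called higher and Bag2 lower (-0.47, adjusted p = 0.0472). With the trend removed the Bag2 call was also made (-0.46) and the others were not (0.30, 0.54 and 0.16). The Clpx call was lost without Notch2-mKO control replicate 2, 3 or 4 or Notch2-mKO diabetes replicate 1, 2 or 4 (log2 0.42 to 0.47, adjusted p between 0.0571 and 0.0987). The Bag2, Sirt1 and Tomm70a calls were each lost without any 1 of 7 of the 8 libraries, all but Notch2-mKO control replicate 1 (adjusted p between 0.0551 and 0.131).

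Markers of other cell types were counted in the same fit. Of 8 fibroblast and tendon markers 5 fell on unloading and 6 in diabetes in Notch2-mKO muscle, and 6 on unloading and 6 in diabetes in WT muscle. The shares of all genes called lower were 3.2%, 2.54%, 16.3% and 15.5% in the same order. Dcn, named after its values were seen, was called higher in both treatments of WT muscle, with 214 to 244 CPM after unloading and 197 to 249 CPM in diabetes, against 100.1 to 218 CPM in controls, and in neither with the trend removed. The summed level of the 8 was 388 to 634 CPM in unloaded and 402 to 509 CPM in diabetic Notch2-mKO muscle, against 699 to 1189.6 CPM in controls. In WT muscle it was 325 to 646 CPM after unloading and 332 to 519 CPM in diabetes, against 850.1 to 1119 CPM in controls. Of 8 endothelial markers 4 fell in unloaded Notch2-mKO and 2 in unloaded WT muscle, against 3.2% and 16.3% of all genes. Of 8 macrophage markers 0 were called in unloaded Notch2-mKO muscle, against 7.31% of all genes. There 1 had an unadjusted p under 0.05 and 1, Lyz2, was called higher by DESeq2. The shares of all genes were 24.7% and 12.6%, in either direction. In unloaded WT muscle 4 macrophage markers fell and 0 rose, against 16.3% and 18.4% of all genes. Lyz2, named after its values were seen, had 11.1 to 20.3 CPM in unloaded Notch2-mKO muscle, against 6.14 to 13.2 CPM in controls. In unloaded WT muscle, where edgeR did not call it, Lyz2 lay above all controls, with 13.6 to 17.6 CPM, against 9.15 to 13.0 CPM. Of 9 smooth muscle and pericyte markers Acta2 is listed at 0 in every library, and the sum of the rest was 97.3 to 111 CPM in unloaded Notch2-mKO muscle, against 92.8 to 153 CPM in controls, and 99.3 to 134 CPM in unloaded WT muscle, against 109 to 134 CPM in controls. Its members moved apart in unloaded WT muscle, where 5 were called lower and 1 higher, against 16.3% and 18.4% of all genes. Cspg4 (4.75 to 8.01 CPM, against 9.11 to 11.9 CPM in controls), Mcam (7.51 to 11.3 CPM, against 13.8 to 17.8 CPM) and Notch3 (10.9 to 20.8 CPM, against 22.2 to 30.9 CPM) lay below all controls, and Rgs5 (28.1 to 40.9 CPM, against 8.11 to 24.3 CPM) lay above them; these 4 were named after their values were seen. For unloading in Notch2-mKO edgeR called 0 of the list and DESeq2 3, with 4 at an unadjusted p under 0.05. The shares of all genes were 7.31%, 12.6% and 24.7% in the same order. The part of these cells in the changes of the chaperone genes was not tested. The 37 genes together had 6762 ± 826 CPM (SD, n = 4) in unloaded and 7289 ± 361 CPM in diabetic Notch2-mKO muscle, against 7728 ± 789 CPM in controls. In WT muscle they had 6764 ± 1087 CPM after unloading and 7172 ± 331 CPM in diabetes, against 8433 ± 1101 CPM in controls.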

How the data were processed

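Whole gastrocnemius RNA was measured in 24 libraries. The authors deposited 4 tables holding estimated counts per gene and log2 values; mm10 is the build per the submitters' processing notes, and for aligner and counter the notes used here name none. By comparison with the counts, the deposited log2 values carry 1 scaling factor per library and are centred on the control mean of each genotype. The 8 control columns repeated in a second table were identical. Estimated counts were rounded and fitted with edgeR 4.0.16 in R 4.3.3 (TMM, default expression filter, 13048 genes, 6 group coefficients, quasi-likelihood F test, Benjamini-Hochberg adjustment; common coefficient of variation 19.97%). In the shallowest library 3 counts equal 0.0906 CPM, a limit for counting error only. Alternatives were DESeq2 1.42.0 and its size factors, upper quartile scaling, no filter, a replicate block, smooth GC and length offsets (mgcv 1.9.3), limma 3.58.1 on the authors' log2 values and leaving out each library. The fit was tested on simulated data. Lengths, GC content and positions come from GENCODE on GRCm38. Values in every library are printed for up to 3 genes a class with the smallest p over the 4 treatment comparisons, for Hspa1a and Hspa1b, and for Dnaja1, Hspb7 and single groups of other genes chosen after their values were seen; of the wider list up to 2 genes a class are named. The genes and lists were chosen with earlier results of these data known.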

Additional observations from a re-analysis of the deposited data

Results flagged for a closer look

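In 7 of 120 combinations of a gene and a group of 4 libraries, a single library stood apart by Dixon's criterion, under which chance picks about 1 in 20 groups. Of these, 2 concern control replicate 3 of Notch2-mKO: Hspa8 at 1868 CPM (others 1349 to 1392) and Hsph1 at 120.1 CPM (others 70.042 to 75.0). Diabetic WT replicate 3 had the lowest Hspa8, at 767.2 CPM (others 1095 to 1102), and the highest Hspa1b, at 10.27 CPM (others 4.61 to 5.54). Hsp90aa1 stood out at 20.21 CPM in unloaded Notch2-mKO replicate 1 (others 10.6 to 12.0) and at 13.52 CPM in WT control replicate 4 (others 9.32 to 9.80). Hspa9 stood out at 390.5 CPM in unloaded Notch2-mKO replicate 4 (others 312 to 320.3).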

How the results depend on the processing

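With each library left out in turn, the number of the 37 genes called was 3 to 6 for unloading in Notch2-mKO, 18 to 26 for unloading in WT, 0 in every case for diabetes in Notch2-mKO, 15 to 20 for diabetes in WT, 0 to 5 for diabetes against unloading in Notch2-mKO and 2 to 4 in WT, and 0 to 1 for the difference in unloading response. With the GC and length trend removed, unloading in WT called 17, and 17 with the replicate block as well. The replicate block alone gave 6 and 24 for unloading and 0 and 17 for diabetes in Notch2-mKO and WT. For fits with a library left out or a replicate block, the share of all genes called is not given. A general loss of calls therefore cannot be told apart in these counts. Whether equal replicate numbers pair libraries is not stated in the labels. The correlations cannot decide it, since paired libraries can correlate weakly. Same-numbered deviations correlated above 0.1 in 6 of 28 pairs, with r from -0.18 to 0.33. Libraries correlated best with their own number in 8 of 28. Between the control groups, replicates 3 (r = 0.33) and 4 (r = 0.18) did so, and replicates 1 and 2 did not. DESeq2 called 1 for diabetes in Notch2-mKO and 5 for diabetes against unloading there, and limma on the authors' log2 values called 0 for the second. The 2-unit heat shock element was present for 16 of the 28 genes with a window. Directions turned with the trend removed (value with the block in brackets) for Dnajb4 -0.20 (-0.20) for diabetes in WT, Dnajb4 -0.49 (-0.50) for unloading in WT, Cryab 0.094 (0.085) for diabetes in Notch2-mKO, Cryab 0.015 (0.020) for diabetes in WT, Dnaja1 -0.71 (-0.70) for diabetes in WT, Vbp1 -0.45 (-0.45) for unloading in WT, Pdcl3 -0.087 (-0.087) for diabetes in WT, Hsf2 -0.12 (-0.13) for diabetes in WT, Vbp1 -0.44 (-0.43) for diabetes in WT and Hspd1 to Hspe1 ratio -0.075 for unloading in Notch2-mKO. On the authors' log2 scaling the values that turned were Cct5 0.0054 for unloading in WT, Ahsa1 0.0060 for unloading in WT, Cryab 0.13 for diabetes in Notch2-mKO, Cryab 0.0032 for diabetes in WT, Dnaja1 0.11 for unloading in WT and Hspa8 -0.060 for the difference in unloading response. With single libraries left out, values that changed sign ran as follows: Cryab from -0.076 to 0.11 for diabetes in Notch2-mKO, Dnaja1 from -0.059 to 0.085 for diabetes in WT, Hsf1 from -0.025 to 0.31 for unloading in Notch2-mKO, Hspa1a from -0.022 to 0.34 for diabetes in Notch2-mKO, Hspa1b from -1.32e-04 to 0.61 for diabetes in WT, Hspa8 from -0.072 to 0.45 for the difference in unloading response, Stip1 from -0.056 to 0.10 for diabetes against unloading in WT and Hspd1 to Hspe1 ratio from -0.072 to 0.16 for unloading in Notch2-mKO. Apart from those of Dnajb4, Vbp1, Pdcl3, Hsf2, Cct5 and Ahsa1 these were not called to begin with. Upper quartile scaling, DESeq2 size factors and no filter turned no direction. The cause was not tested. Each CPM value of the 37 genes was above the 0.0906 CPM that 3 counts make in the shallowest library.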
